A study of Mus musculus with 15 samples.

Results

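The genes described here are 34 genes of sterol and fatty acid synthesis, the enzymes that turn acetyl-CoA into cholesterol and into long-chain fatty acids, with the proteins that control them. They were chosen by symbol, as rows of the expression tables whose Ensembl identifier carries that symbol in GENCODE vM21. No measured value enters that rule, though the list itself was drawn up with earlier results of these data known. All 34 were listed in the tables of all 15 samples and all 34 passed the filter on low values, out of 30949 genes in both sets of tables and 29989 that passed. They were followed in regulatory T (Treg) cells, CD4+ T cells that restrain immune responses, with and without DOCK8, an activator of the actin regulator Cdc42, and with and without stimulation through the T cell receptor.

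The cells came from spleen and lymph nodes of C57BL/6 females with both Dock8 copies floxed and a YFP-Cre fusion in Foxp3 on 1 X chromosome (Foxp3YFP-Cre/+/Dock8flox/flox), of an age not given in the sources used here. X inactivation leaves 2 kinds of Treg cell in the same animal: YFP+ cells, in which Cre from the Foxp3 locus can delete Dock8 (KO), and YFP- cells with floxed, undeleted Dock8 (WT). Both kinds were sorted as CD25+CD39+ cells, gated on CD3 according to the growth protocol and on CD4 according to the design, and were cultured overnight (16 h) without or with beads that carry antibodies to CD3 and CD28, 1 bead to each cell. There were 4 WT and 6 KO samples without beads, and 3 WT and 2 KO samples with beads. WT cells thus carry the floxed allele too, and KO cells differ from them also in carrying YFP-Cre and in the X chromosome they use. The samples are described as independent, but not whether each came from its own mouse, so the p-values cover the variation between samples, part of which may be technical.

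Cholesterol synthesis starts with the joining of acetyl-CoA units, runs through the mevalonate steps to farnesyl diphosphate, commits to sterols at squalene, and ends with the removal and rearrangement of groups on lanosterol. The same acetyl-CoA feeds fatty acid synthase, whose product is elongated and desaturated. The transcription factors SREBP1 and SREBP2, carried by SCAP and held back by INSIG1 when sterols are plentiful, switch on most of these genes, and activated lymphocytes are known to use the pathway as they grow and divide.

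Values were deposited as TPM, a length-corrected share of each sample's transcripts, which keeps no read depth; the depth behind each value is unknown. Levels are given in TPM, and differences on the log2(TPM + 1) scale, which understates changes of low genes. A gene was called when its limma adjusted p (Benjamini-Hochberg over 29989 genes) was under 0.05. Each bead comparison sets samples of 2 separately filtered sets of tables side by side, 36904 genes listed without beads and 31785 with them, and whether all samples were prepared together is not stated. The share of TPM in 14 repeat-derived predicted genes (Gm10800 among them) was 26.9 ± 8.84% in WT and 38.0 ± 8.70% in KO samples without beads (SD, n = 4 and 6), and 10.8 ± 3.18% and 15.6 ± 4.67% with beads (n = 3 and 2). This share takes TPM from every other gene. Its mean was lower with beads and higher in KO, though samples of the 2 genotypes overlapped in each treatment. Its part in the results was not tested. Values were therefore also scaled to 815 abundant genes, averaging 50 TPM or more in all groups (called scaled values). All 7 Treg markers (Foxp3, Il2ra, Ctla4, Ikzf2, Entpd1, Cd4 and Cd3e) were above 0, with a sum of 417 to 674 TPM (WT) and 301 to 478 TPM (KO) without beads and of 810 to 875 TPM (WT) and 750 to 771 TPM (KO) with them. Markers of B cells summed to at most 32.1 TPM, of myeloid cells to 7.09 TPM, of neutrophils to 15.1 TPM, of CD8 T and NK cells to 54.4 TPM and of stromal cells to 84.3 TPM in any sample. The stromal sum without beads was 46.3 to 63.1 TPM (WT) and 33.8 to 84.3 TPM (KO), against 14.9 to 23.5 TPM (WT) and 16.5 to 31.2 TPM (KO) with beads. The CD8 T and NK sum without beads was 27.0 to 54.4 TPM (WT) and 21.2 to 45.3 TPM (KO), against 10.6 to 17.9 TPM (WT) and 16.0 to 33.4 TPM (KO) with beads, and the part of these cells in the bead differences was not tested. Without beads Dock8 itself was read at 13.7, 13.7, 9.15 and 22.0 TPM in WT samples, and KO samples ran from 6.70 to 11.9 TPM. With beads it was at 8.71, 10.1 and 8.91 TPM in WT and 7.90 and 5.82 TPM in KO; the ranges overlapped without beads and not with them. A gene's TPM adds up all its exons, so transcripts of a deleted allele still count.

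The promoters of these genes are the part of the genome through which sterol control is known to act, so the bases before the start site are shown for 3 members called higher with beads below. RefSeq (GRCm38.p6) gave a promoter window, 250 bases before to 50 after the start, for 27 of the 34 members; Fads1, Fdft1, Fdps, Scd1, Scd2, Sqle and Stard4 had no entry. Shown are the 250 bases before the start of Hmgcs1 (chr13:119690101-119690350, plus strand), Mvd (chr8:122443423-122443672, minus strand) and Elovl1 (chr4:118427843-118428092, plus strand), each outside the annotated gene. Capitals mark CCAAT or its reverse complement ATTGG, the letters bound by the factor NF-Y, and TCACNCCAC, a form of the sterol regulatory element bound by SREBPs.
Hmgcs1: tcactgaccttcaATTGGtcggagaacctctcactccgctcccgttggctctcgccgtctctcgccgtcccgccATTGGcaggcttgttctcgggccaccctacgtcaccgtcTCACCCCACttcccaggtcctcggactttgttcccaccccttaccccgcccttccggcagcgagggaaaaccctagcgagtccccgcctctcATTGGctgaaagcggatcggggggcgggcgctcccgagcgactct
Mvd: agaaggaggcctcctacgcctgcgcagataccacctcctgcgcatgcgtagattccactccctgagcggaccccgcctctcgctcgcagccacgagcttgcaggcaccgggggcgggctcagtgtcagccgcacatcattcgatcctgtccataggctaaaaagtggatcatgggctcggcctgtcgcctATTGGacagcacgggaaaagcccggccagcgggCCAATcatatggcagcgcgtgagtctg
Elovl1: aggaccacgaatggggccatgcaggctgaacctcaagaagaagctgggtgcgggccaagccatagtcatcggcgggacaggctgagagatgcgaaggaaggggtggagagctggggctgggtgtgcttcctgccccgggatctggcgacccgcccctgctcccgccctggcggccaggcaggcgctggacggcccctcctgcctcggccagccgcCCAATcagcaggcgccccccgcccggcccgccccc
The Hmgcs1 window held the only such sterol element in these 27 genes, at position -137 from the start, with CCAAT boxes on the other strand on either side of it. Mvd had 2 boxes, at -60 and -27 and on opposite strands, and Elovl1 had 1, at -35. Another Elovl1 start site, whose window (chr4:118429451-118429750) held no CCAAT, is not shown.

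Searched on both strands, CCAAT was in the windows of 22 of the 27 members (81.5%), against 41.1% of 27025 genes with a window. Some genes have several start sites, and a gene counted when any of its windows held the letters. Of its 44 positions, 28 lay within 100 bases before the start. The members without it were Acaca, Acat2, Elovl6, Fads2 and Scap. All 7 called members with a window held CCAAT, as did 15 of the 20 members that were not called. Among the called ones, Acly held it only after the start, at 37, and Insig1 only at -216. TCACNCCAC was in 1 member (3.7%), against 1.44% of genes, and a longer published form of the element, which contains it, was in none of the 27, against 0.0999% of genes. The E-box CACGTG was in 6 members (22.2%), against 8.09% of genes. A match describes letters in a window and is no measured binding site.

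**Figure D1:**
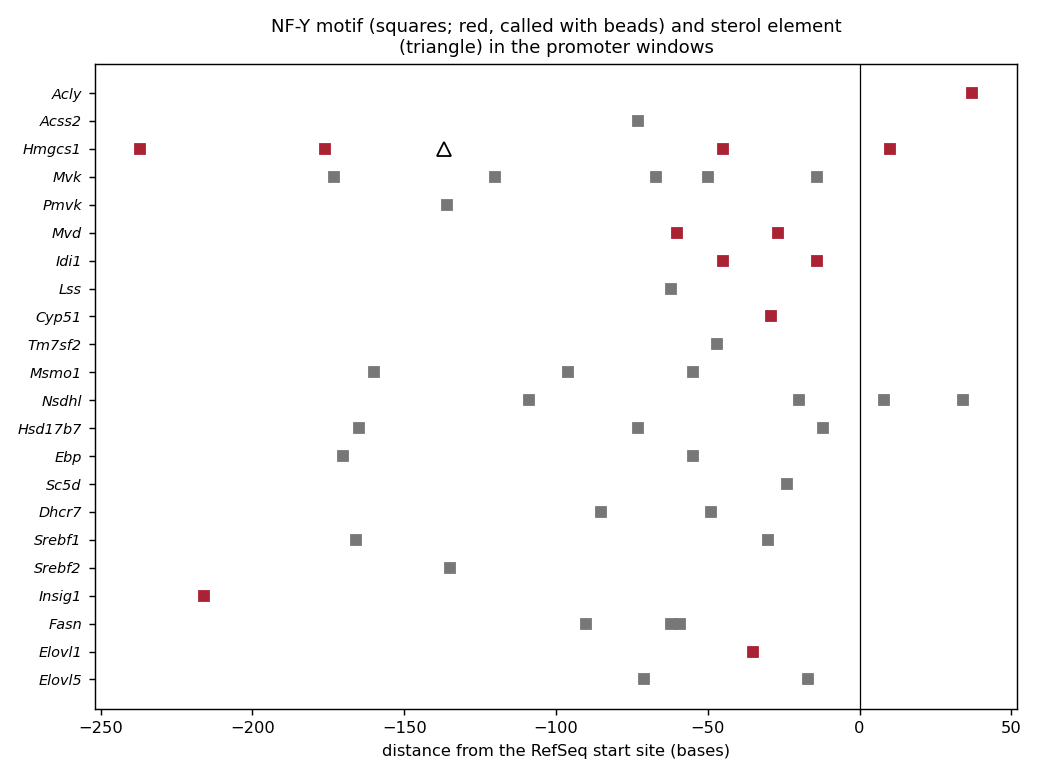
Positions of the NF-Y letters (squares, red for members called with beads) and of the sterol element (triangle) on the horizontal axis, as distance in bases from the RefSeq start site, for the 22 members that hold CCAAT. Of the 44 squares, 28 lie in the 100 bases before the start.

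With beads, 6 of the 34 genes rose in WT cells and 8 rose in KO cells, and none fell in either. In the mevalonate steps Hmgcs1, Idi1 and Fdps rose in both genotypes and Mvd in KO cells. In the sterol branch Fdft1 and Sqle rose in WT and Cyp51 in KO cells. Elovl1, a fatty acid elongase, rose in both genotypes, and Insig1, the sterol brake, and Acly, an acetyl-CoA source, rose in KO cells. The members called in WT were 17.6% of the 34, against 4.60% of all genes called higher and 6.63% called lower. Those called in KO were 23.5%, against 5.95% of all genes higher and 2.15% lower. Among the 14262 genes that averaged 5 TPM or more in some group (expressed genes), 9.63% were called higher in WT and 12.4% in KO. The median difference over the 34 genes was 0.66 in WT, where all genes had a median of -0.44, and 1.11 in KO, where all genes had -0.23. The expressed genes had medians of -0.39 in WT and 0.09 in KO. Unadjusted p-values under 0.05 were found for 14 members higher and 1 lower in WT, and for 16 higher and 0 lower in KO. Of all 29989 genes, 2397 were higher and 5445 lower in WT at that level, and 3385 and 3026 in KO. Of the expressed genes, 2313 were higher and 3620 lower in WT, and 3204 and 2084 in KO. The split of all called genes moved with scaling: higher calls made up 40.9% of all calls in WT and 73.4% in KO, 46.0% and 41.0% when scaled, and 80.4% and 80.5% after median-ratio scaling. Scaled, the WT calls were again 6 members with a median of 0.67, while in KO 3 members were called (Hmgcs1, Mvd and Idi1) and the median was 0.75. Median-ratio scaling gave 15 members called in WT with a median of 1.27, and 10 in KO with a median of 1.26. Leaving out the 4 KO samples without beads that had over 35% of TPM in the repeat-derived genes left 3 members called in KO (Hmgcs1, Mvd and Cyp51) and a median of 0.88. Leaving out 1 sample at a time gave 2 to 7 members called in WT, the 2 without WT bead sample 2, and 0 to 8 in KO, the 0 without KO bead sample 4 or 5. By samples, 14 members (41.2%) had every WT bead sample above every WT sample without beads, against 8.61% of all genes, and 2 (5.88%) had it below, against 20.9%. In KO cells 18 members (52.9%) lay wholly above, against 11.2% of all genes, and 0 lay wholly below, against 11.5%. In bulk samples such as these, fewer cells of a type and less RNA per cell cannot be told apart.

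**Figure D2:**
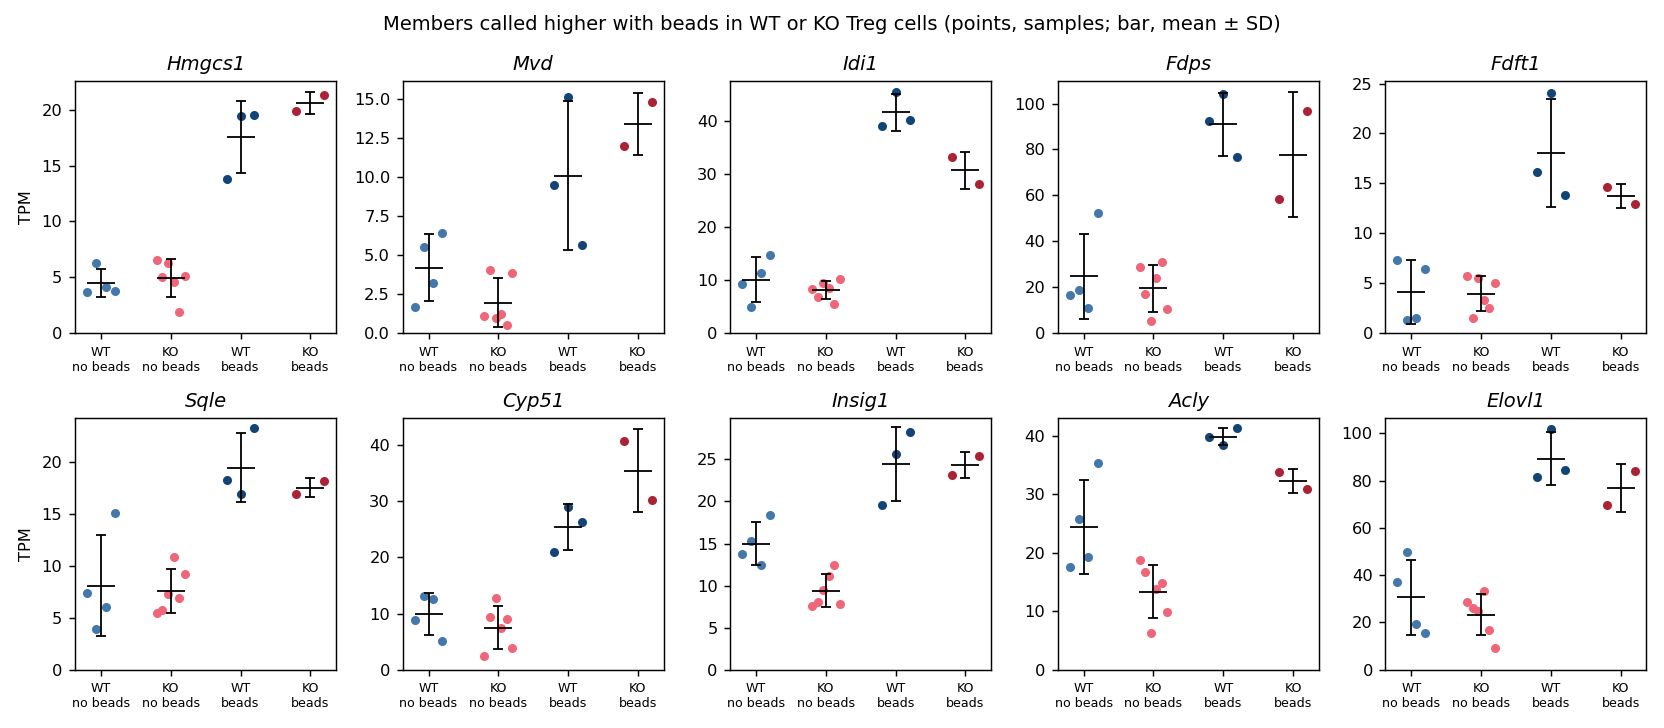
TPM in each sample (points) of the 10 members called with beads in WT or KO cells, by group, with mean ± SD. For Hmgcs1 and Idi1 every bead sample lies above every sample without beads, at 13.8 TPM or more against 6.57 TPM or less for Hmgcs1.

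Hmgcs1 (ENSMUSG00000093930, chromosome 13, 119690379 to 119708260, plus strand, GRCm38, as are all gene coordinates here) encodes the cytosolic enzyme that forms HMG-CoA, the precursor of mevalonate. It was read at 3.69, 6.30, 4.12 and 3.75 TPM in the 4 WT samples without beads and at 13.8, 19.4 and 19.5 TPM in the 3 with beads, WT samples being listed here and below with the unnumbered one first and then by number. In KO cells it ran from 1.89 to 6.57 TPM without beads (median 5.09, n = 6) and was at 19.9 and 21.3 TPM with them. Bead samples lay above all others in both genotypes. The rise was 1.77 in WT (log2 scale, SE 0.36, limma adjusted p = 0.00576) and 1.93 in KO (SE 0.38, limma adjusted p = 0.00583). The WT call held under all 26 alternatives, and the KO call was lost without KO bead sample 4 or 5 (limma adjusted p = 0.0743 and 0.109).

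Mvd (ENSMUSG00000006517, chromosome 8, 122433601 to 122443422, minus strand), the decarboxylase that makes isopentenyl diphosphate, had the largest rise of the KO calls. Its KO level was 0.540 to 4.01 TPM without beads (median 1.17) and 12 and 14.8 TPM with beads. WT samples were at 1.64, 5.49, 3.21 and 6.42 TPM without beads and 9.50, 15.1 and 5.61 TPM with them, so that the WT groups overlapped. The difference was 2.43 in KO (SE 0.54, limma adjusted p = 0.0117) and 1.11 in WT (SE 0.51, limma adjusted p = 0.181). Under median-ratio scaling the WT difference was called (log2 1.65, limma adjusted p = 0.0418). The KO call was lost without either KO bead sample (limma adjusted p = 0.0976 and 0.165), and the scaled rise was 2.04 (limma adjusted p = 0.0376).

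Idi1 (ENSMUSG00000058258, chromosome 13, 8885501 to 8892451, plus strand) isomerises isopentenyl diphosphate, the building block of the pathway. It stood at 9.30, 4.83, 11.4 and 14.8 TPM in WT cells without beads and at 39.1, 45.5 and 40.2 TPM with them. KO cells had 5.46 to 10.1 TPM (median 8.35) and then 33.2 and 28.2 TPM. Neither genotype's groups overlapped. The rise of 2.03 in WT (SE 0.34, limma adjusted p = 0.00194) was called under all 26 alternatives. In KO it was 1.82 (SE 0.36, limma adjusted p = 0.00596), lost without KO bead sample 4 or 5 (log2 1.71 and 1.94). The KO call was also lost without the 4 KO samples above 35% repeat-derived TPM (log2 1.76, limma adjusted p = 0.0566).

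Fdps (ENSMUSG00000059743, chromosome 3, 89093588 to 89101959, minus strand) makes farnesyl diphosphate, from which sterols and the lipid anchors of small GTPases branch. WT samples went from 16.7, 18.9, 10.9 and 52.2 TPM to 92.2, 104 and 76.6 TPM, and KO samples from 5.18 to 30.8 TPM (median 20.6) to 58.6 and 96.9 TPM. The bead samples were again the higher ones without overlap, although WT sample 3 without beads stood above its group. The rise was 2.07 in WT (SE 0.56, limma adjusted p = 0.0282) and 2.11 in KO (SE 0.60, limma adjusted p = 0.0428). It was called in 19 of 26 alternatives in WT and 13 in KO. Leaving out any WT bead sample, or the unnumbered sample, sample 1 or sample 2 of WT without beads, ended the WT call (limma adjusted p = 0.0550 to 0.0987). The KO call ended without either KO bead sample or any of 7 other samples, namely all 3 WT bead samples, the unnumbered sample and sample 1 of WT without beads, and samples 1 and 5 of KO without beads (limma adjusted p = 0.0522 to 0.379).

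The other mevalonate genes were not called. Acat2, the cytosolic thiolase that makes acetoacetyl-CoA, was at 5.03, 2.00, 5.64 and 9.52 TPM in WT cells without beads and 11.1, 20.2 and 18.4 TPM with them. In KO cells it was at 0.948 to 6.39 TPM (median 3.66) and 7.72 and 8.09 TPM. Bead samples were higher without overlap in both genotypes, by 1.52 in WT (limma adjusted p = 0.0507) and 1.05 in KO (limma adjusted p = 0.251). The WT difference was called in 8 of 26 alternatives. Among these was leaving out WT sample 3, or KO sample 1 or 2, all without beads (limma adjusted p = 0.0271 to 0.0453). Mvk, mevalonate kinase, was at 2.01 to 4.99 TPM and 7.24 to 10.5 TPM in WT, and at 2.48 to 8.28 TPM and 9.23 to 11.9 TPM in KO. Pmvk, which adds the next phosphate, was at 3.99 to 18.1 TPM and 7.99 to 19.7 TPM in WT. In KO cells Pmvk ran from 0 to 10.4 TPM without beads, with 1 sample listed at 0, and was at 9.68 and 13.6 TPM with them. All 7 mevalonate genes had a higher mean with beads in both genotypes, with a median difference of 1.52 in WT and 1.82 in KO. Scaled, these medians were 1.51 and 1.37.

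The step into sterols is taken by Fdft1, squalene synthase (ENSMUSG00000021273, chromosome 14, 63145150 to 63179578, minus strand). WT cells without beads had 7.28, 1.32, 1.47 and 6.44 TPM, and with beads 16.1, 24.1 and 13.8 TPM. KO cells had 1.54 to 5.72 TPM (median 4.21) and 14.6 and 12.9 TPM. The groups did not overlap in either genotype, and WT samples 1 and 2 without beads were lower than the other two. The rise was 2.09 in WT (SE 0.51, limma adjusted p = 0.0150), lost without WT bead sample 2 (limma adjusted p = 0.0767). The KO difference of 1.66 had a limma adjusted p of 0.0761 and was called in 2 of 26 alternatives. A share of 17.6% of its 31-base words also occurs in transcripts of Ctsb, a lysosomal protease gene on the opposite strand, and the strand setting of the counting is not given in the sources used here. Ctsb itself differed by 0.73 in WT and 1.27 in KO (limma adjusted p = 0.231 and 0.0653).

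Sqle (ENSMUSG00000022351, chromosome 15, 59315077 to 59331192, plus strand) encodes squalene epoxidase, a rate-controlling enzyme of the sterol branch. It was at 7.36, 3.92, 6.07 and 15.1 TPM in WT cells without beads and at 18.3, 16.9 and 23.3 TPM with them, and in KO cells at 5.49 to 10.9 TPM (median 7.11) and 16.9 and 18.2 TPM. All bead samples exceeded all samples without beads, WT sample 3 coming closest. The WT rise of 1.30 (SE 0.38, limma adjusted p = 0.0384) was called in 15 of 26 alternatives. It was lost when any bead sample, of either genotype, or the unnumbered sample, sample 1 or sample 2 of WT without beads was left out (limma adjusted p = 0.0530 to 0.151). The KO difference was 1.14 (limma adjusted p = 0.104).

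Cyp51 (ENSMUSG00000001467, chromosome 5, 4081145 to 4104746, minus strand), lanosterol demethylase, reached its highest levels in KO cells with beads, at 40.7 and 30.2 TPM, against 2.36 to 12.7 TPM without (median 8.26). WT cells had 8.83, 13.1, 12.6 and 5.14 TPM without beads and 20.9, 29.0 and 26.3 TPM with them. Bead samples were higher without overlap in both genotypes. The KO rise was 2.24 (SE 0.49, limma adjusted p = 0.0104), lost without KO bead sample 4 or 5 (limma adjusted p = 0.155 and 0.0979). That call was also lost when scaled (log2 1.79, limma adjusted p = 0.0509) and with only the groups compared (limma adjusted p = 0.0555). The WT difference was 1.34 (limma adjusted p = 0.0747) and was called in 6 of 26 alternatives. Among these were median-ratio scaling (limma adjusted p = 0.0119) and leaving out the unnumbered KO sample (limma adjusted p = 0.0416).

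Genes of the later sterol steps were not called and went in no common direction. Nsdhl and Ebp, which act on the intermediates after lanosterol and lie on the X chromosome, had higher means with beads. Nsdhl was at 0 to 9.10 TPM and then 6.65 to 13.5 TPM in WT, with 1 sample listed at 0, and at 0 to 5.68 TPM and then 9.78 and 11.0 TPM in KO. Ebp was at 5.92 to 24.5 TPM and 26.1 to 52.6 TPM in WT, and 1.63 to 15.7 TPM and 19.6 and 24.9 TPM in KO. For these genes the X chromosome in use and the loss of DOCK8 cannot be told apart when KO is set against WT. Msmo1, the methyl oxidase, was at 16.5 to 32.0 TPM and 24.4 to 27.7 TPM in WT, and at 6.33 to 28.7 TPM and 26.5 and 30.8 TPM in KO. Sc5d, a sterol desaturase, was at 15.3 to 31.7 TPM and 23.0 to 32.6 TPM in WT, and at 11.9 to 23.6 TPM and 18.3 and 24.2 TPM in KO. These genes thus overlapped in all but the Ebp comparisons and the KO comparison of Nsdhl.

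Lower means with beads were seen for Lss, Tm7sf2 and Dhcr7 in both genotypes and for Hsd17b7 in WT, none of them called. Lss, which closes the sterol ring as lanosterol synthase, was at 14.8 ± 5.78 TPM in WT (SD, n = 4) and 17.6 ± 12.1 TPM in KO (n = 6), and with beads at 10.8 ± 8.20 TPM (n = 3) and 7.34 and 14.0 TPM. Tm7sf2, a sterol reductase, was at 5.39 ± 3.05 TPM and 5.30 ± 2.90 TPM, and then at 3.22 ± 0.849 TPM and 2.96 and 5.10 TPM. Hsd17b7, a ketosteroid reductase, ranged without beads from 1.90 to 23.0 TPM in WT samples and from 0.730 to 5.09 TPM in KO samples, and from 1.82 to 11.9 TPM and 4.66 to 7.34 TPM with them. Dhcr7, the last reductase of cholesterol synthesis, had the highest mean TPM of the 34 genes in cells without beads. It stood at 63.6, 65.9, 58.0 and 64.6 TPM in WT, while KO samples ran from 2.63 to 80.2 TPM (median 47.1). With beads it was at 30.2, 57.9 and 28.5 TPM and at 27.1 and 34 TPM. The WT groups were parted only by the gap between 57.9 and 58.0 TPM, and the difference was -0.76 (limma adjusted p = 0.565).

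**Figure D3:**
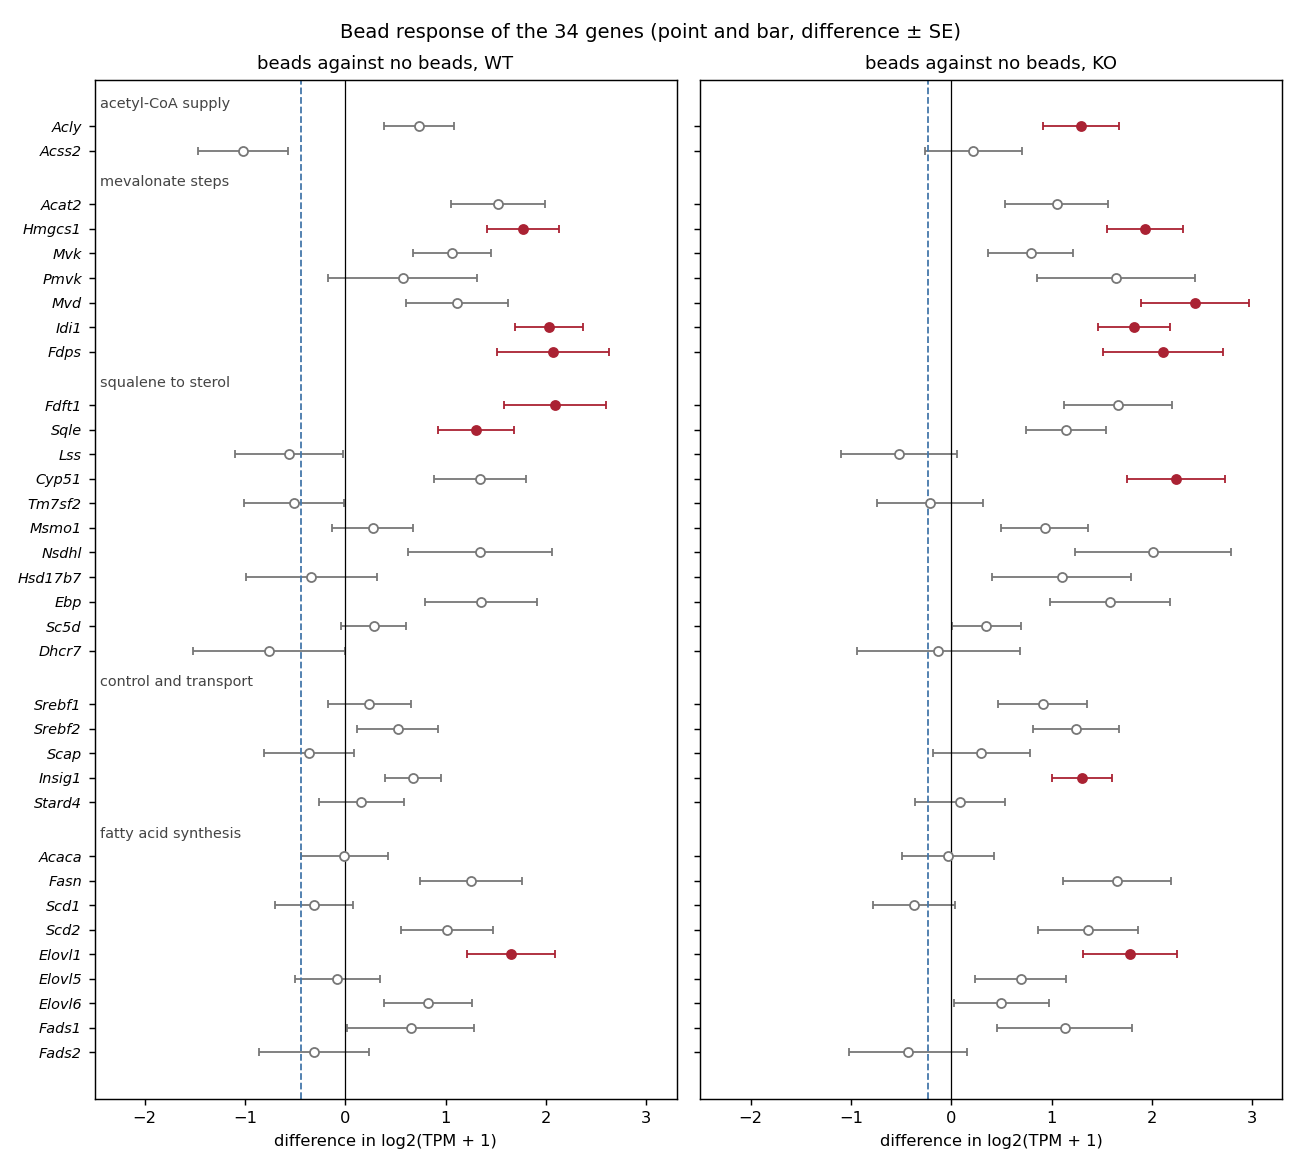
Difference with beads in log2(TPM + 1), with SE, for each of the 34 genes by role, in WT (left) and KO cells (right). Filled red points were called (limma adjusted p under 0.05) and the dashed line is the median of all genes, -0.44 in WT and -0.23 in KO; the 7 mevalonate genes all lie to the right of 0.

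Among the control genes, Insig1 alone was called, in KO cells. Insig1 (ENSMUSG00000045294, chromosome 5, 28071363 to 28078662, plus strand), the sterol-dependent anchor of SCAP and itself a known SREBP target, was at 7.57 to 12.4 TPM in KO without beads (median 8.74) and at 23.2 and 25.4 TPM with beads. WT samples were at 13.8, 15.3, 12.5 and 18.4 TPM and at 19.6, 25.6 and 28.2 TPM. The bead samples were higher without overlap in both genotypes and the bead samples of the 2 genotypes overlapped. The rise was 1.30 in KO (SE 0.30, limma adjusted p = 0.0137) and the difference 0.67 in WT (SE 0.28, limma adjusted p = 0.140). Under median-ratio scaling the WT difference was called (log2 1.27, limma adjusted p = 0.00557). The KO call was lost without either KO bead sample (log2 1.36 and 1.24) and when scaled (log2 0.85, limma adjusted p = 0.0824). It was lost too with only the groups compared (limma adjusted p = 0.0632). The same held without the 4 KO samples above 35% repeat-derived TPM (limma adjusted p = 0.0737).

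The SREBP genes were not called on the values as deposited. Srebf2, which encodes the SREBP mainly tied to sterol genes, was at 9.12, 8.50, 4.16 and 10.7 TPM in WT without beads and 11.0, 13.5 and 10.3 TPM with them, with overlap. KO samples were at 2.44 to 8.96 TPM (median 5.33) and at 14.5 and 13.5 TPM, without overlap (log2 1.24, limma adjusted p = 0.0943). Srebf1, the SREBP mainly tied to fatty acid genes, was at 15.1, 26.4, 12.3 and 23.6 TPM and at 15.1, 35.6 and 19.7 TPM in WT, where the groups overlapped over most of their range. In KO it was at 3.79 to 11.5 TPM (median 9.26) and at 21.0 and 13.0 TPM, a difference of 0.91 (limma adjusted p = 0.249). Scap, the escort protein, was at 6.43, 7.74, 20.3 and 12.4 TPM and 7.75, 9.47 and 7.13 TPM in WT, and at 4.88 to 20.9 TPM (median 14.6) and 13.2 and 18.7 TPM in KO, with overlap in each. Stard4, a carrier of cholesterol between membranes, was at 11.5 to 20.6 TPM and 11.0 to 32.5 TPM in WT, and at 8.97 to 29.7 TPM and 13.6 to 20.8 TPM in KO. Srebf2 in KO was called under median-ratio scaling (log2 1.39, limma adjusted p = 0.0305).

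Of the acetyl-CoA genes, Acly rose in KO cells and Acss2 was not called. Acly (ENSMUSG00000020917, chromosome 11, 100476353 to 100528000, minus strand), which cleaves citrate into acetyl-CoA, was at 6.29 to 18.7 TPM in KO without beads (median 14.3) and at 33.7 and 30.8 TPM with them. WT samples were at 17.5, 25.7, 19.3 and 35.3 TPM and at 39.7, 38.4 and 41.3 TPM. Bead samples were higher without overlap in both genotypes. The KO rise was 1.29 (SE 0.38, limma adjusted p = 0.0489) and the WT difference 0.73 (SE 0.35, limma adjusted p = 0.203). This call was the closest to the threshold: it held in 9 of 26 alternatives and ended without either KO bead sample or any of 11 other samples (limma adjusted p = 0.0504 to 0.301), being kept when sample 3 of WT or the unnumbered KO sample, both without beads, was left out. Acss2, which makes acetyl-CoA from acetate, was at 12.2, 8.72, 10.3 and 11.5 TPM in WT without beads and at 8.23, 4.28 and 2.80 TPM with them, lower without overlap (log2 -1.02, limma adjusted p = 0.160). In KO it was at 4.52 to 18.0 TPM (median 9.02) and 8.12 and 14.1 TPM, with overlap.

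In fatty acid synthesis, Elovl1 rose in both genotypes. Elovl1 (ENSMUSG00000006390, chromosome 4, 118428093 to 118432953, plus strand) elongates very long saturated acyl chains used in sphingolipids. It was at 37.2, 49.9, 19.5 and 15.7 TPM in WT without beads and at 81.4, 102 and 84.5 TPM with them, and at 9.19 to 33.4 TPM (median 25.6) and 69.7 and 84.2 TPM in KO. All bead samples stood clear of all others. The rise was 1.65 in WT (SE 0.44, limma adjusted p = 0.0245) and 1.78 in KO (SE 0.47, limma adjusted p = 0.0289). It was called in 20 of 26 alternatives in WT and 21 in KO. In KO it was not called when scaled (log2 1.32, limma adjusted p = 0.0617). Nor was it called there without the 4 KO samples above 35% repeat-derived TPM (log2 1.28, limma adjusted p = 0.172). The WT call ended without any WT bead sample or without sample 2 or 3 of WT without beads (limma adjusted p = 0.0611 to 0.0935), and the KO call without KO bead sample 4 or 5 (limma adjusted p = 0.162 and 0.266).

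Neither the carboxylase nor the synthase of this branch was called on the values as deposited with the filter of 1 TPM, and the 2 were not tested against each other. Acaca, acetyl-CoA carboxylase, was at 4.06, 4.96, 11.7 and 3.43 TPM in WT and 8.93, 4.78 and 3.55 TPM with beads, and at 3.41 to 8.77 TPM (median 8.26) and 6.32 and 7.77 TPM in KO. Its groups overlapped fully, with differences of -0.01 in WT (95% interval -0.92 to 0.90) and -0.03 in KO (-1.01 to 0.94). Fasn, fatty acid synthase, was at 5.02, 12.7, 13.6 and 3.73 TPM and at 15.8, 22.3 and 21.8 TPM in WT, and at 1.18 to 6.80 TPM (median 5.80) and 14.9 and 15.6 TPM in KO. Fasn was higher with beads without overlap in both genotypes, by 1.25 in WT and 1.65 in KO (limma adjusted p = 0.128 and 0.0780). With the filter at 5 TPM its KO difference was called (limma adjusted p = 0.0468). Under median-ratio scaling both were called (log2 1.83 in WT and 1.79 in KO, limma adjusted p = 0.0275 and 0.0477). Scd1, a stearoyl-CoA desaturase, was hardly detected, at 0.412, 1.06, 0.611 and 0.182 TPM in WT without beads and at 0.213, 0.329 and 0.180 TPM with them. In KO it was at 0 to 2.62 TPM (median 0.301), with 1 sample listed at 0, and at 0.241 and 0.0775 TPM with beads.

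Scd2, the other stearoyl-CoA desaturase measured, was at 1.55, 1.96, 1.14 and 2.48 TPM in WT without beads and at 3.40, 5.33 and 5.0 TPM with them. KO samples were at 0 to 2.29 TPM (median 1.03), with 1 sample listed at 0, and at 2.28 and 5.77 TPM. The WT groups did not overlap and the KO groups did, with differences of 1.01 and 1.36 (limma adjusted p = 0.182 and 0.116). The elongases Elovl5, for polyunsaturated chains, and Elovl6, for saturated and monounsaturated ones, were not called. Elovl5 was at 34.5 to 41.0 TPM and 27.1 to 48.3 TPM in WT, and at 11.0 to 39.7 TPM and 38.5 and 44.6 TPM in KO. Elovl6 was at 1.28 to 5.93 TPM and 4.99 to 8.68 TPM in WT, and at 1.42 to 4.60 TPM and 3.16 and 6.81 TPM in KO. The fatty acid desaturases Fads1 and Fads2 were low and overlapped in all but Fads1 in KO, which was at 0 to 3.29 TPM without beads and at 4.21 and 5.38 TPM with them. Fads1 was at 0 to 6.91 TPM and 2.63 to 6.53 TPM in WT, and Fads2 at most at 3.38 TPM in any sample.

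Without beads, none of the 34 genes was called between KO and WT cells. Among all genes 0.00667% were called higher in KO and 0.0667% lower. Of the 34 genes 26 had a lower mean difference and 8 a higher one, with a median of -0.37, beside -0.11 for all genes and -0.28 for the 14262 expressed genes. Lower differences were found for 17502 of all 29989 genes and for 9649 of the expressed genes. Scaled, the median of the 34 was -0.11 and that of all genes 0.12, and without the 4 KO samples above 35% repeat-derived TPM it was -0.08 and 0.01. An unadjusted p under 0.05 was reached by 0 members higher and 4 lower, Srebf1, Acly, Insig1 and Hsd17b7. Of all 29989 genes 720 were higher and 2666 lower at that level, and of the 14262 expressed genes 386 and 2144. The lower share of the 34 genes lay between the lower shares of these sets. Srebf1 and Insig1 (5.88%) had every KO sample below every WT sample, against 1.27% of all genes, and 0 members had every KO sample above, against 0.293%.

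Srebf1 (ENSMUSG00000020538, chromosome 11, 60199089 to 60222581, minus strand) had the smallest p of the 34. The highest KO sample, at 11.5 TPM, stood just under the lowest WT sample, at 12.3 TPM, and the means were 8.80 ± 2.87 TPM (SD, n = 6) and 19.3 ± 6.73 TPM (n = 4). The difference was -1.06 (SE 0.35, 95% interval -1.80 to -0.32, limma adjusted p = 0.267), and -0.70 when scaled. Insig1 had a similar edge, 12.4 TPM in the highest KO sample and 12.5 TPM in the lowest WT sample, with a difference of -0.63 (SE 0.24, 95% interval -1.13 to -0.13, limma adjusted p = 0.340) and -0.28 when scaled. Acly differed by -0.85 (SE 0.30, limma adjusted p = 0.306), or -0.49 scaled, with 1 KO sample overlapping the WT samples at 18.7 TPM. Hsd17b7 differed by -1.38 (SE 0.55, limma adjusted p = 0.358), its WT samples running from 1.90 to 23.0 TPM. None of these 4 was called under any of the 26 alternatives. Hmgcs1 and Sqle lay near 0, at 0.07 (95% interval -0.57 to 0.72) and 0.02 (-0.66 to 0.70), intervals that leave room for differences of that size in either direction.

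With beads, none of the 34 genes was called between KO and WT either, beside 0% of all genes called higher and 0.00333% called lower, and 0 members reached an unadjusted p under 0.05. There were 16 higher and 18 lower mean differences, with a median of -0.06, beside 0.13 for all genes and 0.11 for the expressed genes. Over all genes 18029 differences were higher and 11960 lower. The smallest p belonged to Acss2 (log2 1.04, 95% interval -0.10 to 2.18), Acat2 (-0.94, -2.14 to 0.26) and Scap (0.88, -0.26 to 2.03), each with a limma adjusted p of 1.00. Hmgcs1, Cyp51 and Scap (8.82%) had both KO samples above the 3 WT samples, against 17.4% of all genes. Idi1, Ebp, Acly, Fasn and Acat2 (14.7%) had both below, against 8.02%. With 3 against 2 samples such separation is frequent, as these shares over all genes show. The bead samples of the 2 genotypes have no title number in common, 1 to 3 in WT and 4 and 5 in KO. Genotype and whatever the number stands for thus cannot be told apart in this comparison. For Insig1 the difference was 0.00 (95% interval -0.71 to 0.71) and for Srebf1 -0.39 (-1.43 to 0.66).

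**Figure D4:**
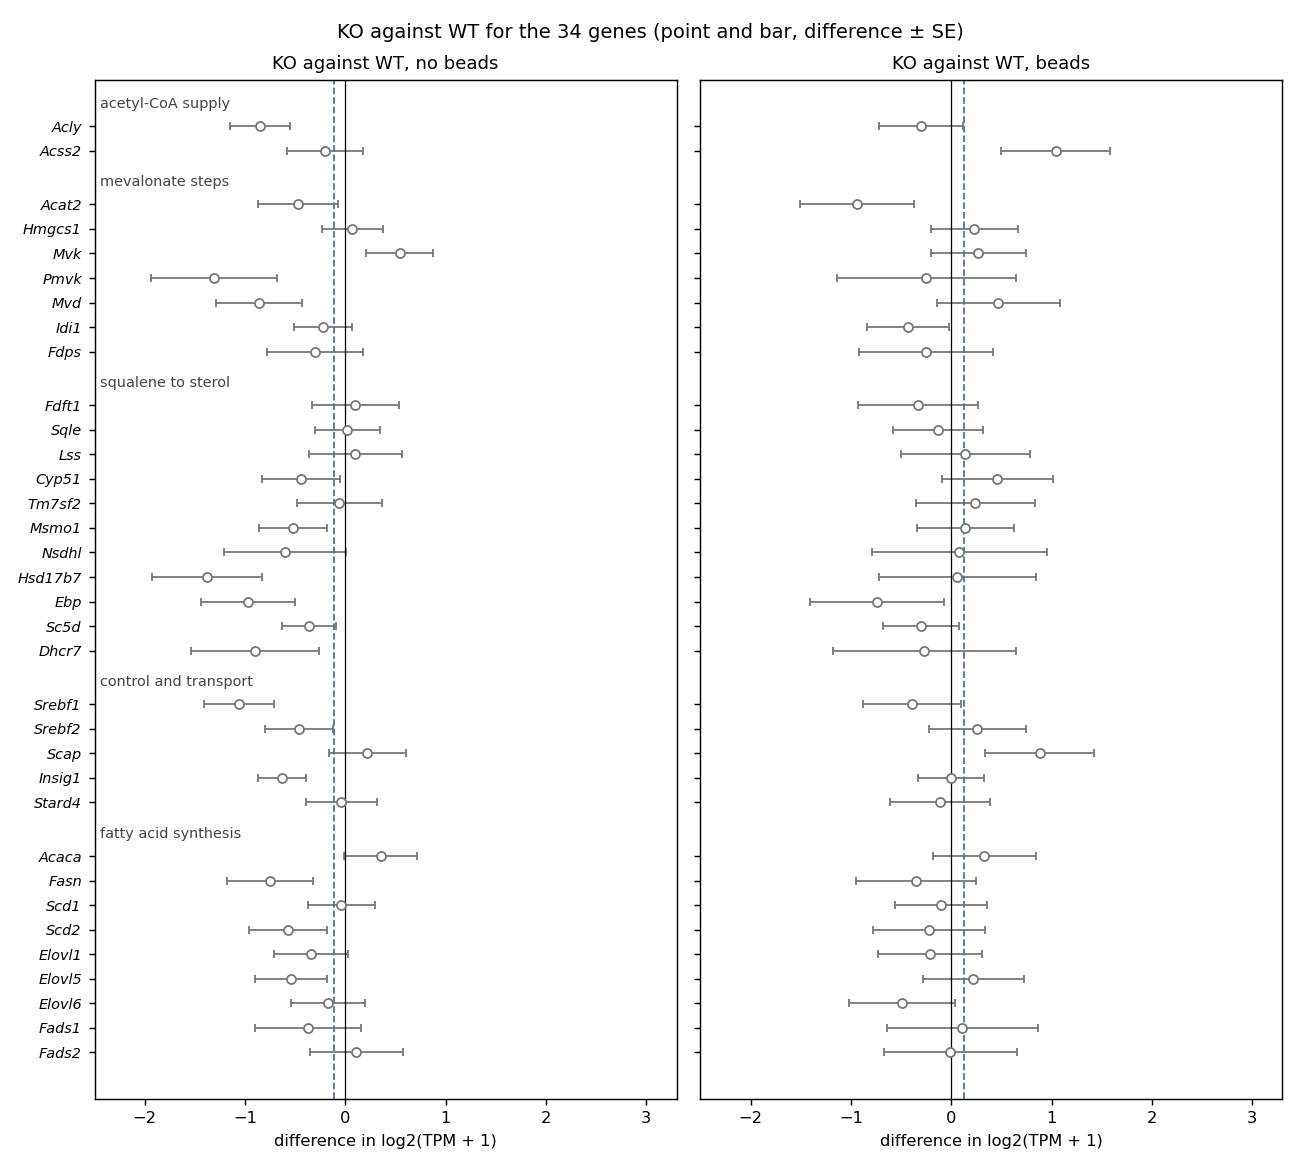
Difference between KO and WT cells in log2(TPM + 1), with SE, for each of the 34 genes by role, without beads (left) and with beads (right). Open points were not called, which is all of them, and the dashed line is the median of all genes, -0.11 without beads and 0.13 with them.

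The bead responses of KO and WT cells were compared directly, as the difference between the 2 differences, and no member was called, with 0 at an unadjusted p under 0.05. Of all genes 0.00333% were called higher and 0% lower. The difference, KO response minus WT response, was above 0 for 24 members and below 0 for 10. It was above 0 for 19609 of all 29989 genes and for 10358 of the 14262 expressed genes. Its median was 0.32, beside 0.27 for all genes and 0.41 for the expressed genes. Scaled, these medians were 0.00, -0.06 and -0.02. Acss2 and Mvd had the smallest p, at 1.24 (95% interval -0.15 to 2.64) and 1.33 (-0.26 to 2.91), each with a limma adjusted p of 0.999. The Acss2 value sets -1.02 in WT against 0.22 in KO. Lss, Tm7sf2 and Dhcr7 had lower means with beads in both genotypes. Their differences between the responses were 0.03, 0.30 and 0.63, or -0.42, -0.09 and 0.17 when scaled. For Hmgcs1 the difference was 0.16 (-0.96 to 1.28), for Idi1 -0.21 (-1.26 to 0.85) and for Sqle -0.15 (-1.33 to 1.03). That Mvd, Cyp51, Insig1 and Acly were called with beads in KO cells and not in WT, and Fdft1 and Sqle in WT and not in KO, is therefore no measured difference between the genotypes.

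**Figure D5:**
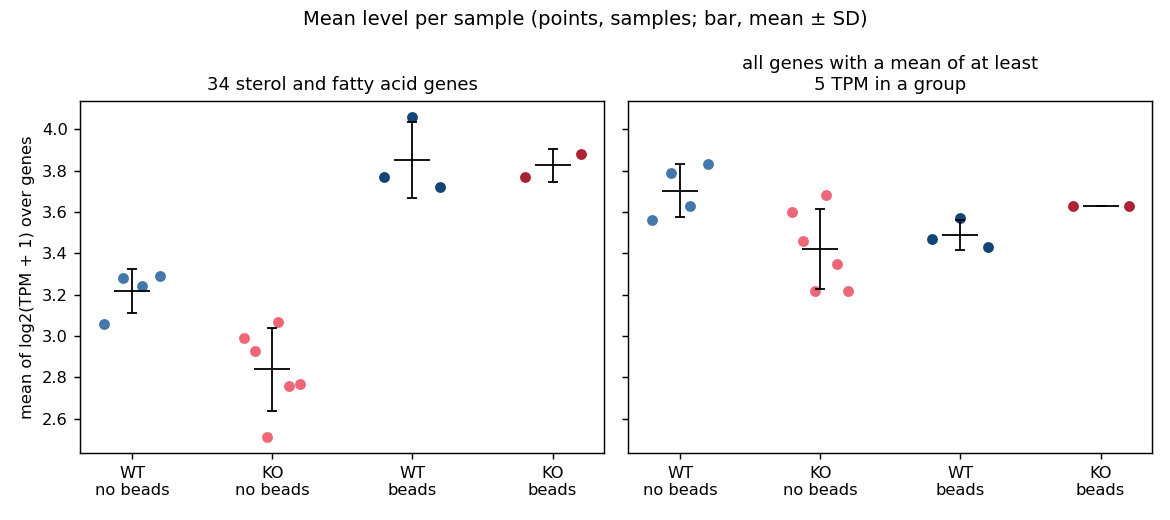
Mean of log2(TPM + 1) in each sample (points) over the 34 genes (left) and over the 14262 expressed genes (right; average of 5 TPM or more in some group), by group, with mean ± SD. Over the 34 genes all 5 bead samples lie at 3.72 or more and all samples without beads at 3.29 or less, while over the 14262 genes all bead samples lie within the range of the samples without beads.

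Taken as 1 value per sample, the mean of log2(TPM + 1) over the 34 genes was 3.06, 3.28, 3.24 and 3.29 in WT without beads and 3.77, 4.06 and 3.72 with them. In KO cells it ran from 2.51 to 3.07 without beads and was 3.77 and 3.88 with them. Both bead groups lay clear of the groups without beads, and 1 KO sample without beads reached just into the WT range. Over the 14262 expressed genes the group means were 3.70 ± 0.128 and 3.42 ± 0.193 without beads (SD, n = 4 and 6) and 3.49 ± 0.0716 with beads in WT (n = 3), and 3.63 in both KO bead samples. By role, the median difference with beads was 0.28 in WT and 1.10 in KO for the 11 genes from squalene to sterol, 0.24 and 0.91 for the 5 control and transport genes, and 0.65 and 0.69 for the 9 fatty acid genes. Scaled, these medians were 0.29 and 0.70, 0.25 and 0.46, and 0.70 and 0.51.

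A further 40 genes of the same pathways passed the filter, among them sterol sensors and exporters, acyl-CoA synthetases and the other enzymes of chain elongation. With beads 2 of them (5.0%) rose and 1 fell in WT, and 6 (15%) rose and 0 fell in KO. Of all genes 4.60% and 5.95% were called higher, and of expressed genes 9.63% and 12.4%. Scaled, 2 were called higher and 1 lower in WT, and 4 higher and 3 lower in KO. None was called between genotypes with or without beads. Hsd17b12, the ketoreductase of chain elongation, rose by 2.57 in WT (limma adjusted p = 0.0113) and 2.37 in KO (limma adjusted p = 0.0308), from 7.65 ± 5.01 and 9.86 ± 7.02 TPM (SD, n = 4 and 6) to 42.8 ± 5.26 and 46.5 ± 10.3 TPM (n = 3 and 2). Acsl5, an acyl-CoA synthetase, rose by 1.58 in WT (limma adjusted p = 0.0496) and 3.04 in KO (limma adjusted p = 0.00237). Abcg1, which exports sterols and is a known target of the sterol sensor LXR, fell by 1.91 in WT (limma adjusted p = 0.0110), from 22.0 ± 11.2 to 4.80 ± 1.75 TPM, and differed by -0.93 in KO (limma adjusted p = 0.272).

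In KO cells the mitochondrial citrate carrier Slc25a1, which supplies the citrate that Acly cleaves, rose by 2.78 (limma adjusted p = 0.00157), from 7.18 ± 4.71 TPM (SD, n = 6) to 51.2 ± 16.4 TPM (n = 2). Tecr and Hacd3, which complete the elongation cycle, rose by 1.82 and 1.76 in KO (limma adjusted p = 0.0153 and 0.0405). In WT cells Slc25a1, Tecr and Hacd3 differed by 0.94, 0.52 and 1.14 (limma adjusted p = 0.172, 0.434 and 0.132). None of the 40 genes was called for the difference between the bead responses. Without beads Slc25a1 and Tecr had the smallest p between genotypes in this list, lower in KO by differences of -1.56 and -1.43 (limma adjusted p = 0.140 and 0.144). With beads they were Me1 at 1.38 and Acsl3 at -1.45, each with a limma adjusted p of 1.00. The median over the 40 genes with beads was -0.01 in WT and 0.47 in KO, or 0.13 in KO when scaled.

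Some members share sequence with other genes, which bears on how surely their reads were assigned. The share of 31-base words found in transcripts of other genes was 43.7% for Acat2 (all with its near copy Acat3), 33.5% for Acaca, 31.9% for Fdft1, 27.9% for Fdps, 27.1% for Idi1, 13.3% for Tm7sf2, 13.1% for Hmgcs1 and 11.3% for Scap. It was at most 8.18% for the other members, Scd1 having the most of these. Acat3 differed by 0.13 in WT and 0.10 in KO with beads (limma adjusted p = 0.932 and 0.964). These shares describe sequence only, and how far they alter the values of these members was not tested.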

How the data were processed

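Per the labels, Smart-Seq2 libraries of 15 Treg samples were sequenced. The authors deposited 1 table per sample of Ensembl gene identifiers and TPM values. The submitters' processing notes name STAR, Salmon, DESeq2 and mm10; the sources used here do not give versions or each tool's role. TPM keep no depth, so no count model was fitted, no interval for counting error is given, and precision rests on the spread between samples. No column of another series was found.

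The 30949 genes in both sets of tables were matched by identifier to GENCODE vM21 (30788 with a symbol). The 29989 genes reaching 1 TPM in 2 samples or more were kept. log2(TPM + 1) was fitted with limma 3.58.1 (R 4.3.3, trend option), 1 mean per group over 15 samples, 11 residual degrees of freedom, 5 contrasts, Benjamini-Hochberg adjustment over all genes kept, called at an adjusted p under 0.05. Intervals are 95% intervals from that fit. The fit was tested on simulated data. Sequence searches used Python 3.11.15.

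The members and gene lists were chosen with earlier results of these data known. Per-sample values are given for members called in any comparison, the 3 with the smallest p in each comparison of groups, and the role holders Srebf1, Srebf2, Scap, Insig1, Hmgcs1, Sqle, Acly, Acaca, Fasn, Scd1 and Scd2; Dhcr7 was added after its values were seen. Each comparison was recomputed under up to 26 alternatives: a pseudocount of 0.1 or 5, the filter dropped or raised to 5 TPM, median-ratio scaling, scaling to abundant genes, only the groups compared, title numbers as a block, no unnumbered samples, each sample left out, and 2 sets of samples left out that were chosen after seeing the data. Some genes of these pathways are not reported here.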

Additional observations from a re-analysis of the deposited data

Results flagged for a closer look

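Each member, and the mean over the 34, was screened in the groups of 4 and 6 samples, 70 groups in all, for a sample whose gap to its nearest neighbour took up most of the group's range by Dixon's 95% limit; chance alone picks out about 1 group in 20. There were 5 such values, all in KO cells without beads. Hmgcs1 was at 1.89 TPM in sample 4, and the next sample was at 4.55 TPM. Dhcr7 was at 2.63 TPM in sample 2, against 40.9 TPM in the next, and Acaca at 3.41 TPM in sample 5, against 7.63 TPM. Scd1 was at 2.62 TPM in sample 2, above the next at 0.498 TPM, and Fads1 was listed at 0 in the same sample, where the next was at 1.57 TPM. Sample 2, which has 3 of the 5, also had the most genes listed at 0 of all 15 samples, 8309 of 29989.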

How the results depend on the processing

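No called difference of a member changed sign under any of the 26 alternatives. Pseudocount 0.1 gave a member median of 1.32 for beads in KO; pseudocount 5 gave 0.43 (WT), 0.64 (KO) and 0.14 (difference between responses). Median-ratio scaling gave 1.27 with 15 members called in WT, -0.27 for KO against WT with beads and -0.04 for the difference between responses. Scaling to abundant genes gave -0.11 for KO against WT without beads, 0.75 with 3 called (beads in KO) and 0.00 (difference between responses). Only the groups compared left 3 called in KO; this setting could not be fitted for the difference between responses. Leaving out the 4 KO samples above 35% repeat-derived TPM gave -0.08 without beads, 0.88 with 3 called (beads in KO) and 0.04 (difference between responses). The cause was not tested. Over samples left out in turn, beads in WT gave a median of 0.60 to 0.88 with 2 to 7 called, beads in KO 1.00 to 1.19 with 0 to 8 called, and KO against WT with beads -0.16 to 0.11; where 1 KO bead sample remains, it is assumed to vary like the other groups. Without WT sample 1 the WT median was 0.88. Genes called over the whole table numbered 22 without beads, 5 to 67 over samples left out, and for beads 3366 in WT (1654 to 3656) and 2431 in KO (382 to 2715). Whether equal title numbers mark the same mouse is not stated, and with so few pairs these values cannot decide it. Deviations of samples with equal numbers correlated by -0.0272 to 0.0343. Samples of WT and KO without beads correlated best with their own number in 2 of 3 pairs, WT with and without beads in 0 of 3. With the number as a replicate block, 6 members were called for beads in WT, 8 in KO and 0 in the other comparisons, with medians of 0.66, 1.11, -0.37, -0.05 and 0.32.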
